A study of Mus musculus with 7 samples.

Results

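The 8 genes described here are markers of LYVE1-positive resident macrophages, chosen by symbol: Lyve1, F13a1, Folr2, Timd4, Cbr2, Cd4, Ednrb and Fcna. All 8 were among the 17209 genes of the deposited count table. The table holds 7 RNA-seq libraries of macrophages from the muscle layer of the mouse small intestine, sorted for GFP at the Cx3cr1 locus. Of these, 3 followed pMCAO surgery (pMCAO 1 to pMCAO 3), which the series title calls stroke, and 4 followed sham surgery (Sham 1 to Sham 4), all at 24 h and all labelled C57BL6/J. The GFP reporter is shared by all libraries, since sorting used it. Age is not given in the sources used here, and pMCAO 3 is described as pooled material. Sham titles speak of biological replicates, but nothing says that each library came from its own animal, so p-values measure only the spread between these samples.

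LYVE1-positive macrophages are long-lived tissue macrophages that lie along vessels, are known in several mouse organs, and usually carry little MHC class II and little CX3CR1. In the gut, macrophages that carry TIM-4 (the product of Timd4) and CD4 are the ones known to maintain themselves longest without monocytes. The genes have distinct roles. Lyve1 encodes a hyaluronan receptor, Timd4 a phosphatidylserine receptor for apoptotic cells, Folr2 the folate receptor beta, Ednrb the endothelin receptor type B and Cd4 the CD4 co-receptor, which binds MHC class II. F13a1 encodes the catalytic A subunit of coagulation factor XIII, a transglutaminase, Fcna the lectin ficolin-A of the complement system and Cbr2 a carbonyl reductase. Outside macrophages, Lyve1 is a marker of lymphatic endothelium, F13a1 of monocytes and platelets, Timd4 of large peritoneal macrophages, Cd4 of T cells, and Ednrb is known in endothelium, pericytes and glia.

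Library totals ranged over 12685941 to 21680302 counts after pMCAO and 18873893 to 34432716 after sham surgery. The sorted cells carried the macrophage genes of the label: the 20 pan-macrophage genes summed to 17070 to 24520 CPM (counts scaled to the library total) after pMCAO and 24770 to 32640 CPM after sham surgery. The reporter locus Cx3cr1 was at 175 ± 43.3 CPM after pMCAO (SD, n = 3) and 256 ± 37.5 CPM after sham surgery (SD, n = 4), with adjusted p = 0.256. Every adjusted p here comes from edgeR's quasi-likelihood fit with Benjamini-Hochberg adjustment unless another tool is named. Sham 1 stood apart from the other sham libraries in several values, with the highest monocyte marker sum of its group at 2888 CPM, against 1147 to 1305 CPM in Sham 2 to 4. Cd4, Cbr2 and Ednrb, where it lay apart, are given with and without it. In bulk RNA, fewer cells of a type and less RNA per cell cannot be told apart. Values are CPM after TMM scaling, log2 changes are pMCAO minus sham, and adjusted p is over all 17209 genes with a threshold of 0.05.

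None of the 8 genes passed the test, against 0.0988% of all genes that did, 0.0697% higher and 0.0291% lower. By mean, 5 were higher after pMCAO (Ednrb, Lyve1, F13a1, Fcna and Timd4) and 3 lower (Cd4, Folr2 and Cbr2), while 48.6% of all genes had a higher mean. The median log2 change of the 8 was 0.47, and that of all genes -0.02. At an unadjusted p under 0.05, 3 of the 8 were higher (Ednrb, F13a1 and Lyve1), against 6.97% of all genes, and 1 was lower (Cd4), against 6.47%. The values of F13a1 and Ednrb did not overlap between groups, with pMCAO above, as for 5.99% of all genes. The other 6 overlapped. The authors' deposited table calls 0 of the 8 at an FDR under 0.05, against 0.0814% of its genes.

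The promoter windows of the pair without overlap are shown first, with that of Fcna, which holds the most matches to the motifs searched. They cover 250 bases before to 50 after each start and come from RefSeq (GRCm38.p6), which matched 6 of the 8 genes with 8 windows. Lyve1 and Cd4 have no entry. Capitals mark the letters GAGGAA, the core bound by the macrophage factor PU.1, and TGCTGA, a part of the site of MAF factors, on either strand. No GAGGAA match overlapped a TGCTGA match in the windows shown.
F13a1, first window, chr13:37050195-37050494, minus strand: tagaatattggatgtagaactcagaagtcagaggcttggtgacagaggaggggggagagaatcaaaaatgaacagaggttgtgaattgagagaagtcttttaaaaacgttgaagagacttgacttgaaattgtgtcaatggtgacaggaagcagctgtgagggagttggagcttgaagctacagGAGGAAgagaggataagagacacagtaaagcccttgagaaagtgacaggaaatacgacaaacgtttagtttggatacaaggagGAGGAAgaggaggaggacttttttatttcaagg
F13a1, second window, chr13:37049164-37049463, minus strand: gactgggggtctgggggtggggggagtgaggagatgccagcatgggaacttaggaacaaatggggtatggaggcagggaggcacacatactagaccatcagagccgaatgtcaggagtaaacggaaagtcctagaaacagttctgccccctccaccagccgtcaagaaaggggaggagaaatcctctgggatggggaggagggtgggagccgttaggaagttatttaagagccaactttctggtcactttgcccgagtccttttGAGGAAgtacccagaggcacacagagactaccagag
Ednrb, chr14:103843652-103843951, minus strand: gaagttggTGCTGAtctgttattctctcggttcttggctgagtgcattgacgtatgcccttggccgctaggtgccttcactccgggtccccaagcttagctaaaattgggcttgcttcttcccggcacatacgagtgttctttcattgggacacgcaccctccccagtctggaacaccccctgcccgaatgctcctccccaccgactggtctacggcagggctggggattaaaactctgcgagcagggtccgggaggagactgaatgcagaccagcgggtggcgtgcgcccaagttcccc
Fcna, chr2:25627925-25628224, minus strand: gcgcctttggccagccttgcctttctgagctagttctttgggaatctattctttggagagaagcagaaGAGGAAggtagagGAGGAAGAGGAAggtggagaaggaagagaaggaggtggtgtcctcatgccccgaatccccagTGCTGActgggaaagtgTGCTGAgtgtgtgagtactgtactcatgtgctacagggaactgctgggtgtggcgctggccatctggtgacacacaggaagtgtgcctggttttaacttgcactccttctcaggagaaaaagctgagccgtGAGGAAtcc

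The letters GAGGAA were found in 4 of the 8 windows, those of F13a1 (2 matches in the first and 1 in the second), Fcna (4) and Cbr2 (1), and in 28.3% of all 32851 RefSeq promoter windows of the same length. TGCTGA was found in 6 of the 8 windows and in 19.5% of all windows. It was present for 5 of the 6 genes with an entry (Fcna, Folr2, Timd4, Cbr2 and Ednrb) and not in either window of F13a1. The glucocorticoid response element searched as ACANNNTGT was found in 1 of the 8 windows, that of Timd4, and in 6.85% of all windows. These are matches of letters and show no binding. Maf, which encodes a factor of resident macrophages, was at 1341 ± 212 CPM after pMCAO (SD, n = 3) and 1188 ± 89.2 CPM after sham surgery (SD, n = 4), with adjusted p = 0.694 by edgeR.

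Among the surface receptors, Lyve1 (ENSMUSG00000030787, chromosome 7, 110850607 to 110863239, GRCm38) had 1245, 445.5 and 688 CPM in pMCAO 1, 2 and 3, against 409.7, 384, 615 and 435 CPM in Sham 1 to 4. The library pMCAO 1 stood above all others, and pMCAO 2 lay within the sham range. Its log2 change was 0.78 (SE 0.28, 95% interval 0.17 to 1.39, adjusted p = 0.258 by edgeR). Without pMCAO 1 it was 0.30 (adjusted p = 0.662 by edgeR), and without pMCAO 2 it was 1.07 (adjusted p = 0.0667 by edgeR). Of the 10 lymphatic endothelial markers 4 were listed, and 0 of them passed. Pdpn was at 3.90 ± 2.41 CPM after pMCAO (SD, n = 3) and 0.566 ± 0.201 CPM after sham surgery (SD, n = 4), without overlap (log2 change 2.78, adjusted p = 0.146 by edgeR). Flt4 and Stab2 had log2 changes of 0.72 and 0.16, and the lymphatic transcription factor Prox1 one of -0.02. The 4 summed to 14.8 to 23.7 CPM after pMCAO and 10.6 to 16.4 CPM after sham surgery. Mmrn1, Reln and Ccl21a were among the 6 not listed. The part of lymphatic cells in the Lyve1 values was not tested.

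Ednrb (ENSMUSG00000022122, chromosome 14, 103814625 to 103844402) had 45.1, 57.0 and 47.6 CPM in pMCAO 1, 2 and 3, against 35.67, 15.96, 20.13 and 20.01 CPM in Sham 1 to 4. All pMCAO libraries were above all sham libraries, and Sham 1 was the highest of its group. Its log2 change of 1.12 (SE 0.27, 95% interval 0.55 to 1.70, adjusted p = 0.117 by edgeR) was the highest of the 8. It passed without Sham 1, at 1.42 (adjusted p = 0.0328 by edgeR), where 0.18% of all genes were called higher. Leaving out the highest sham value raises the change by itself. With any other library left out Ednrb did not pass, with adjusted p of 0.123 to 0.336 by edgeR. Markers of other cell types that carry Ednrb were measured in the same libraries. The 10 blood endothelial genes summed to 316 to 425 CPM after pMCAO and 108 to 296 CPM after sham surgery without overlap, and all 10 had a higher mean. Cdh5, an endothelial cadherin, was at 84.2 ± 2.06 CPM after pMCAO (SD, n = 3) and 37.8 ± 17.6 CPM after sham surgery (SD, n = 4). The 8 fibroblast genes summed to 473, 106 and 537 CPM in pMCAO 1, 2 and 3, and to 56.6, 170.2, 57.2 and 69.8 CPM in Sham 1 to 4. The fibroblast sums overlapped through pMCAO 2 and Sham 2, although all 8 genes had higher means. With the score of the endothelial and fibroblast lists as a covariate, chosen after seeing the data, the Ednrb change was 1.602 (SE 0.454, adjusted p = 0.762 by edgeR, where no gene of the table passed). That score was 1.80, 0.79 and 1.47 in pMCAO 1, 2 and 3, and -0.17, 1.03, -0.55 and -0.31 in Sham 1 to 4. Only Sham 2 of the sham libraries reached the pMCAO range, so this fit cannot separate the score from the group. The glial genes Sox10, Gfap and Foxd3 were not listed, and the 3 glial markers listed summed to 7.02 to 18.5 CPM after pMCAO and 5.90 to 8.43 CPM after sham surgery. The 9 listed smooth muscle and pericyte markers summed to 179.6 to 446 CPM after pMCAO and 179.5 to 306.5 CPM after sham surgery, and 4 had higher and 5 lower means. Among them the pericyte genes Abcc9 (log2 change 1.61, adjusted p = 0.0718, without overlap), Pdgfrb (2.03, adjusted p = 0.348) and Rgs5 (0.74, adjusted p = 0.504) had higher means. The pericyte gene Kcnj8 (-1.90, adjusted p = 0.422 by edgeR) had a lower one. Pdgfrb, at 0.151 CPM in Sham 3, and Kcnj8, at 0 CPM in pMCAO 2, rested on few counts there. The smooth muscle genes Acta2 (-0.88), Tagln (-0.54), Cnn1 (-0.95) and Des (-0.98) had lower means, and Myh11 (0.60) a higher one. The part of endothelial, pericyte, glial or other stromal cells in the Ednrb values was not tested.

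Timd4 (ENSMUSG00000055546, chromosome 11, 46810800 to 46844332) had 41.4, 43.2 and 22.7 CPM in pMCAO 1, 2 and 3, against 21.5, 32.7, 33.1 and 22.6 CPM in Sham 1 to 4. The highest values were those of pMCAO 1 and 2, while pMCAO 3 was as low as Sham 4. For Timd4 the log2 change was 0.38 (SE 0.27, 95% interval -0.21 to 0.96, adjusted p = 0.573 by edgeR). In the authors' deposited table its log2 change has the other sign, at -0.16 (FDR 0.862). Gata6, the defining transcription factor of large peritoneal macrophages, was not listed. The 9 listed markers of those cells summed to 2150, 3339 and 1626 CPM in pMCAO 1, 2 and 3 and 1582 to 2026 CPM after sham surgery, most of it Fn1 and Cd93. Of the 9, 7 had higher means (median log2 change 1.66), 4 at an unadjusted p under 0.05, and 0 passed. Prg4 was at 30.2 ± 15.9 CPM after pMCAO (SD, n = 3) and 7.59 ± 2.63 CPM after sham surgery (SD, n = 4), without overlap (adjusted p = 0.0535 by edgeR). Prg4 and Timd4 were both highest in pMCAO 2. Among the sham libraries Prg4 was highest in Sham 1 (11.5 CPM), where Timd4 was lowest (21.5 CPM). The part of such cells in the Timd4 values was not tested.

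Folr2 (ENSMUSG00000032725, chromosome 7, 101839988 to 101857194) had 72.6, 64.5 and 33.0 CPM in pMCAO 1, 2 and 3, against 49.9, 51.1, 67.8 and 82.4 CPM in Sham 1 to 4. The groups overlapped over most of their range, and pMCAO 3 was the lowest of the 7. The log2 change was -0.15 (SE 0.27, 95% interval -0.73 to 0.43, adjusted p = 0.850 by edgeR). Its exons share 975 bases with Gm10602 on the other strand, a gene at 1.03 ± 0.526 CPM after pMCAO (SD, n = 3) and 1.88 ± 1.43 CPM after sham surgery (SD, n = 4).

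Cd4 (ENSMUSG00000023274, chromosome 6, 124864692 to 124888221) had 87.5, 83.1 and 78.1 CPM in pMCAO 1, 2 and 3, against 70.9, 144, 134 and 132 CPM in Sham 1 to 4. The pMCAO libraries lay close together and below Sham 2, 3 and 4, but Sham 1 was lower than all of them. This gave a log2 change of -0.54 (SE 0.23, 95% interval -1.02 to -0.05, adjusted p = 0.323 by edgeR). Without Sham 1 it was -0.72 (adjusted p = 0.0849 by edgeR). The 10 T cell markers summed to 57.9 to 97.4 CPM after pMCAO and 40.1 to 129 CPM after sham surgery. Of the 10, 4 had higher and 6 lower means, and 0 passed. Il7r was the most abundant, at 38.0 ± 6.58 CPM after pMCAO (SD, n = 3) and 24.1 ± 20.8 CPM after sham surgery (SD, n = 4). The T cell receptor complex gene Cd3e was at 1.54 ± 1.24 CPM after pMCAO (SD, n = 3) and 3.62 ± 2.01 CPM after sham surgery (SD, n = 4). The part of T cells in the Cd4 values was not tested.

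Among the secreted and enzymatic products, F13a1 (ENSMUSG00000039109, chromosome 13, 36867178 to 37050244) had the highest CPM of the 8, at 1902, 1364 and 1738 CPM in pMCAO 1, 2 and 3, against 978, 872, 1265 and 1044 CPM in Sham 1 to 4. All pMCAO libraries were above all sham libraries, with pMCAO 2 and Sham 3 nearest to each other. The log2 change was 0.68 (SE 0.19, 95% interval 0.28 to 1.081, adjusted p = 0.152 by edgeR). The 11 monocyte markers summed to 2166, 3324 and 1085 CPM in pMCAO 1, 2 and 3, and to 2888, 1274, 1305 and 1147 CPM in Sham 1 to 4. In pMCAO 2, Fn1 alone was at 2084 CPM. Without Fn1 the monocyte sums were 1370.0, 1240.0 and 656 CPM in pMCAO 1, 2 and 3, against 1640.0, 761, 639 and 667 CPM in Sham 1 to 4. Of the 11 monocyte markers, 7 had higher and 4 lower means (median log2 change 0.22), and 0 passed. Only Chil3 had an unadjusted p under 0.05 by edgeR. It was at 211, 93.9 and 38.5 CPM in pMCAO 1, 2 and 3 and 8.82 to 44.5 CPM after sham surgery (log2 change 2.21, adjusted p = 0.304 by edgeR). The 4 listed platelet markers summed to 7.74 to 16.5 CPM after pMCAO and 3.23 to 11.9 CPM after sham surgery. The part of monocytes and platelets in the F13a1 values was not tested.

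Cbr2 (ENSMUSG00000025150, chromosome 11, 120729489 to 120732114) had 228, 223 and 172 CPM in pMCAO 1, 2 and 3, against 162, 226, 231 and 225 CPM in Sham 1 to 4. A single library of each group, pMCAO 3 and Sham 1, was low, and the others lay together. The log2 change was -0.02 (SE 0.18, 95% interval -0.41 to 0.37, adjusted p = 0.973 by edgeR). The SE was the lowest of the 8. Without Sham 1 the change was -0.13 (adjusted p = 0.752 by edgeR).

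Fcna (ENSMUSG00000026938, chromosome 2, 25624666 to 25628030) had 13.1, 26.2 and 7.51 CPM in pMCAO 1, 2 and 3, against 11.9, 8.04, 10.8 and 11.7 CPM in Sham 1 to 4. The library pMCAO 2 stood above all others and pMCAO 3 below all others. The log2 change was 0.56 (SE 0.39, 95% interval -0.28 to 1.39, adjusted p = 0.557 by edgeR), and without pMCAO 2 it was -0.05 (adjusted p = 0.960 by edgeR).

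**Figure D1:**
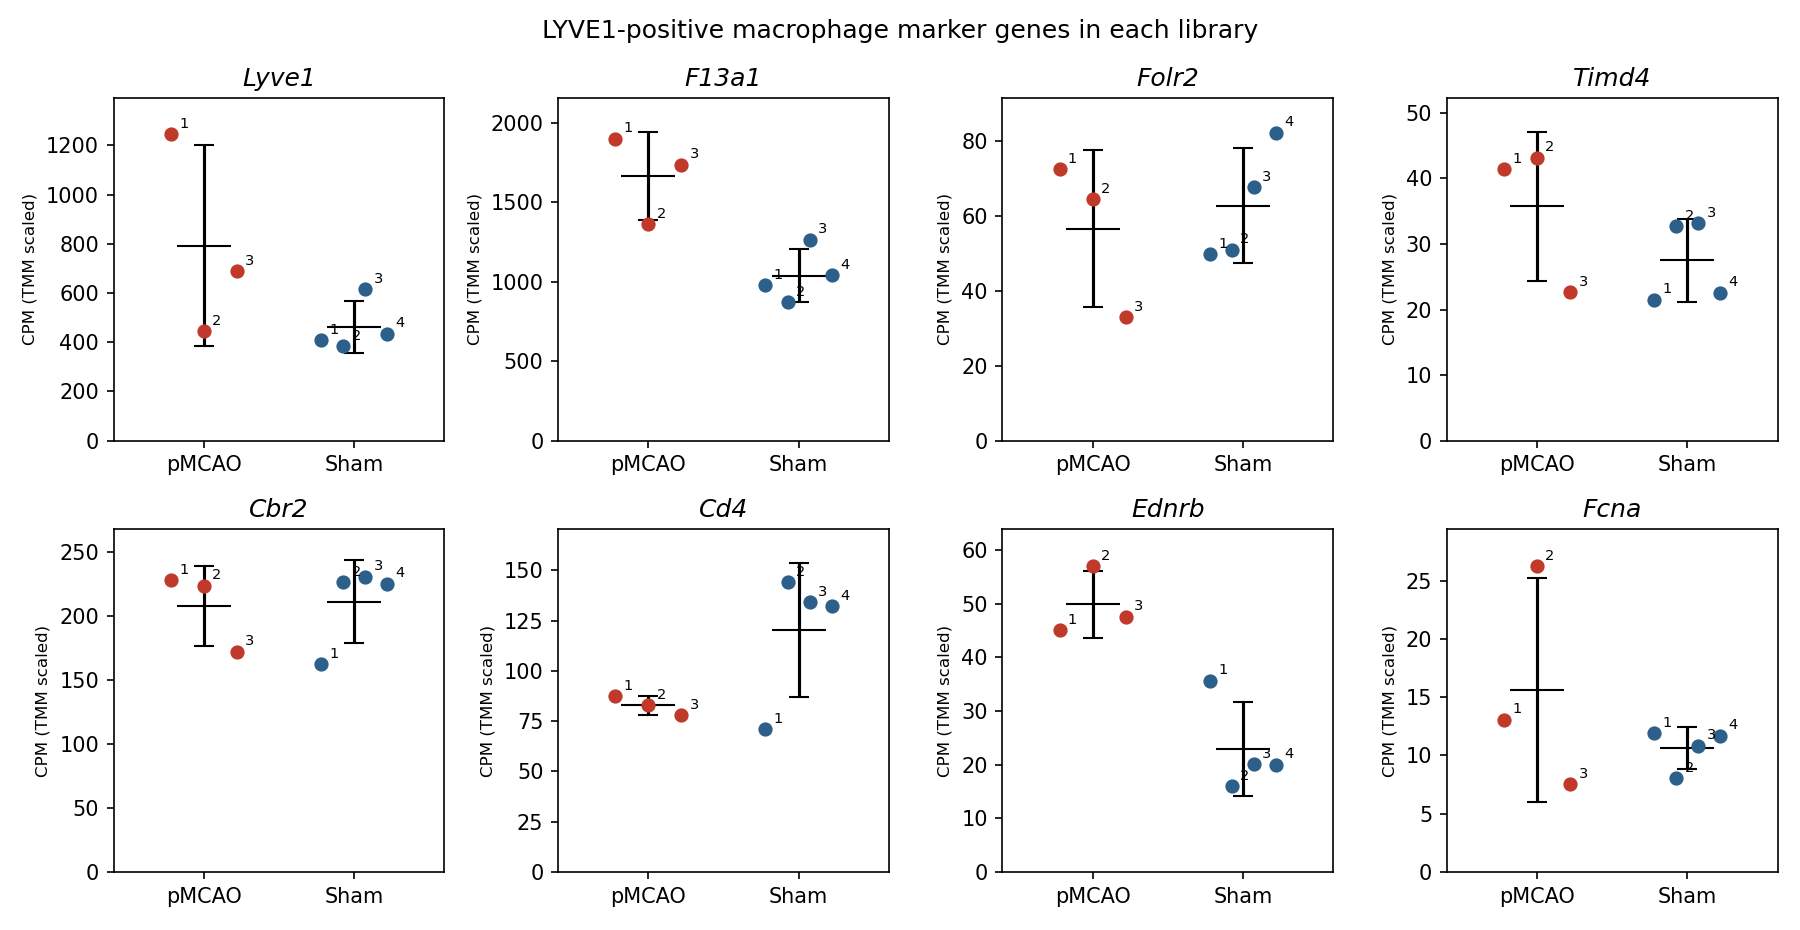
CPM after TMM scaling (vertical axis, from 0) of each of the 8 marker genes in the 3 pMCAO libraries (red) and the 4 Sham libraries (blue), with replicate numbers beside the points and the mean and SD as bars. The groups separate for F13a1 and Ednrb, and Sham 1 lies apart from the other sham libraries for Cd4 (70.9 CPM), Cbr2 (162 CPM) and Ednrb (35.7 CPM).

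The settings in which any of the 8 passed were few. By DESeq2, 2 passed (Ednrb, adjusted p = 0.00932, and F13a1, adjusted p = 0.0208), where 1.83% of all genes were called higher. By limma-voom with sample quality weights 3 passed (Ednrb, adjusted p = 0.00859, F13a1, adjusted p = 0.0101, and Lyve1, adjusted p = 0.0239), where 3.2% of all genes were called higher. Of 18 other settings, Lyve1, F13a1, Ednrb and Timd4 had a positive change in all 18, and Cd4 a negative one in 17. The authors' deposited table is not among these settings. It gives log2 changes of 1.26 for Lyve1, 1.06 for F13a1, 1.54 for Ednrb, -0.16 for Timd4 and -0.81 for Cd4. F13a1 and Ednrb had no overlap between groups, so leaving out a library could not turn their direction. Folr2, Cbr2 and Fcna changed sign in some settings.

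**Figure D2:**
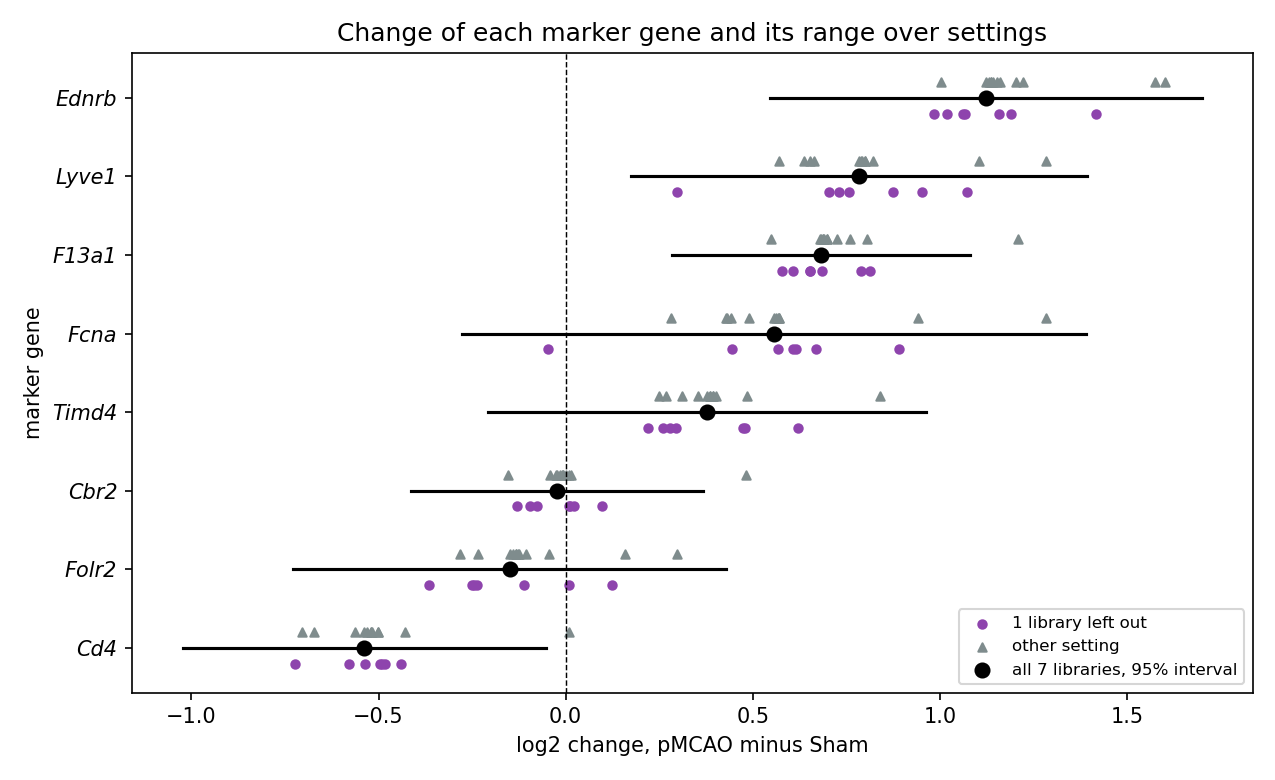
Log2 change (pMCAO minus Sham, horizontal axis) of each marker gene over all 7 libraries with its 95% interval (black), with 1 library left out (purple circles, below the line) and under the other settings (grey triangles, above the line). Ednrb, Lyve1, F13a1 and Timd4 stay above 0 in the settings shown, and Cbr2 lies on both sides of 0.

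Levels were ordered per kilobase of exon, as CPM divided by the merged length of all exons of each gene in a GENCODE annotation. The annotation release behind the counts is not stated, so the order can depend on this choice of length. In the sham libraries Cbr2, at 159 ± 24.6 CPM per kb (SD, n = 4), Lyve1 at 158 ± 35.9 and F13a1 at 154 ± 24.7 did not differ beyond their spread. Folr2 followed at 40.6 ± 9.95 CPM per kb and Cd4 at 29.8 ± 8.27, whose ranges overlapped. Timd4 at 12.7 ± 2.90 CPM per kb was apart from both neighbours, and Fcna at 7.73 ± 1.30 and Ednrb at 5.38 ± 2.04 were lowest and overlapped. After pMCAO the order began with Lyve1 at 272 ± 141 CPM per kb (SD, n = 3) and F13a1 at 248 ± 40.9, which overlapped, and then Cbr2 at 156 ± 23.4, which was below the range of F13a1. Folr2 (36.7 ± 13.5 CPM per kb), Cd4 (20.6 ± 1.17), Timd4 (16.4 ± 5.23), Ednrb (11.7 ± 1.47) and Fcna (11.4 ± 6.99) followed, each overlapping the next.

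Of the 28 pairs among the 8 genes, Lyve1 and F13a1 had the smallest p across libraries (Pearson r = 0.877, exact permutation p = 0.00258, and Spearman rho = 0.964, exact permutation p = 0.00278, n = 7), with adjusted permutation p of 0.0722 and 0.0778 over the 28 pairs. Without pMCAO 1 and pMCAO 3, the farthest in Lyve1, r was 0.68 (n = 5). After taking out the group means, r was 0.884. All libraries share these values' scaling, and 0 of the 28 pairs passed the adjustment by either coefficient. The ratio of Lyve1 to F13a1 counts was 0.655, 0.327 and 0.396 in pMCAO 1, 2 and 3, against 0.419, 0.440, 0.486 and 0.417 in Sham 1 to 4. Lyve1 was thus nearest to F13a1 in pMCAO 1 and farthest from it in pMCAO 2.

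Cd4 and Ednrb split the libraries in another way. Sham 2, 3 and 4 had high Cd4 and low Ednrb, with Ednrb to Cd4 count ratios of 0.111, 0.150 and 0.151. The pMCAO libraries had ratios of 0.516, 0.687 and 0.609, and Sham 1, at 0.503, lay beside them. Because the libraries fall into these clusters no correlation over all 7 is given for the pair.

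**Figure D3:**
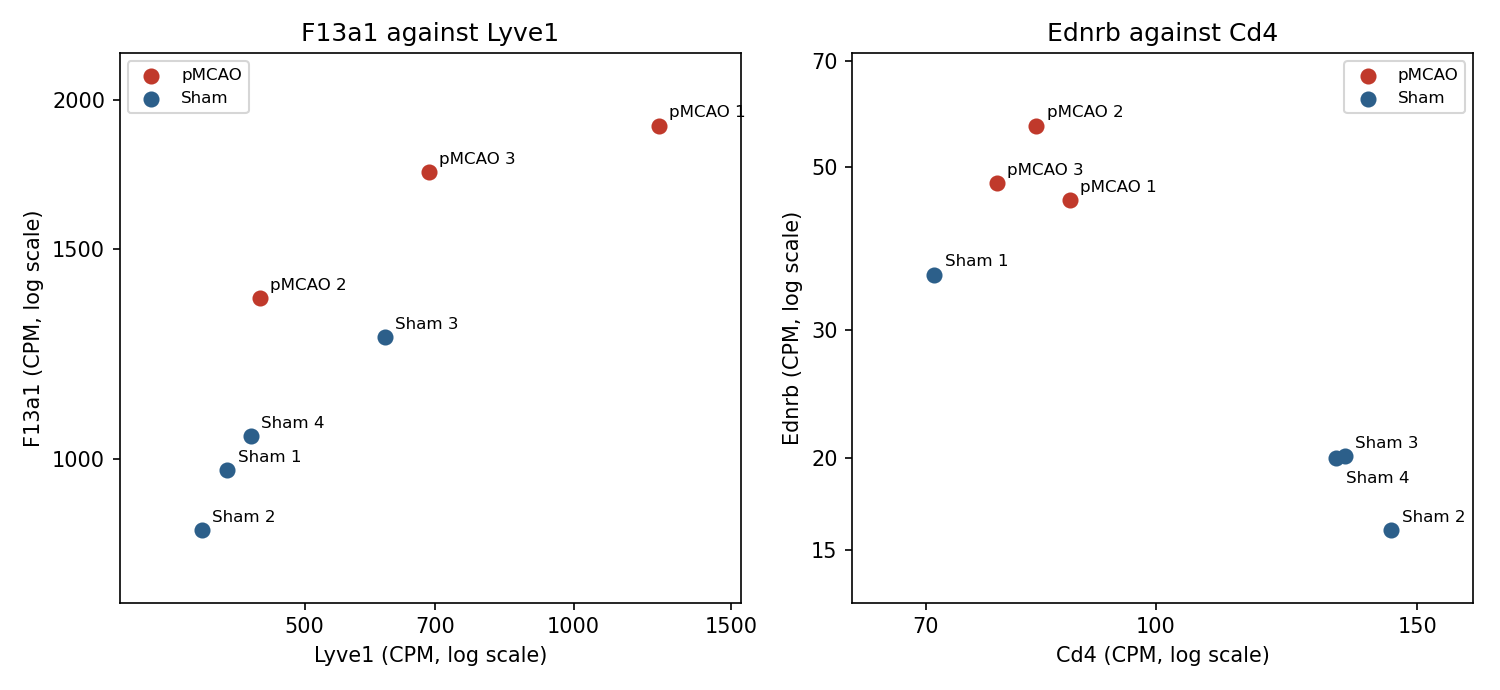
CPM of F13a1 against Lyve1 and of Ednrb against Cd4 (log axes), 1 point per library, pMCAO in red and Sham in blue. The highest Lyve1 (1245 CPM) and the highest F13a1 (1902 CPM) are both in pMCAO 1, and Sham 1 lies with the pMCAO libraries in Cd4 and Ednrb.

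Genes most like each marker were taken as those with the highest Pearson correlation of log2 CPM over the 7 libraries, among 11581 genes of at least 5 CPM. They are the highest of that many coefficients over 7 points that share library and depth, and are given as a description. For Lyve1 they were Cep57l1 (r = 0.981), Gm20342 (0.980) and Coa7 (0.966). For F13a1 they were Tbl1x (0.997), Lrp2bp (0.989) and Lats1 (0.984), and Tbl1x was also first after taking out group means (0.992). For Ednrb they were Gm15713 (0.982), Gm8258 (0.978) and Zfand5 (0.978), and for Cd4 Inppl1 (0.983), Hgs (0.981) and Sgsh (0.974). Timd4 had Cycs (0.962), B4galt4 (0.944) and Fam63a (0.939), Cbr2 had C2 (0.972), Myg1 (0.972) and Ccdc32 (0.971), Folr2 had Tmem116 (0.974), Ulk3 (0.973) and Abtb1 (0.969), and Fcna had Elp2 (0.983), Rgs2 (0.969) and Ecm1 (0.963). After taking out group means the closest were Eya3 for Lyve1 (0.991), Hist1h1b for Folr2 (0.992), Cyb5r3 for Timd4 (0.990), BC068281 for Cbr2 (0.994), B3glct for Cd4 (0.988), Cnot7 for Ednrb (0.992) and Hcfc1r1 for Fcna (0.994). No marker was among the closest genes of another.

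The 8 genes were also set against general macrophage genes. The pan-macrophage sum was lower in every pMCAO library, and 19 of its 20 genes had lower means. Abundant genes weigh most in this sum. Lyz2, the most abundant, was at 8125, 9842 and 4852 CPM in pMCAO 1, 2 and 3, and at 9052 to 11810 CPM after sham surgery. F13a1 amounted to 8.35, 5.56 and 10.2% of that sum in pMCAO 1, 2 and 3, against 3.95, 2.67, 4.57 and 3.60% in Sham 1 to 4. Cbr2, level in CPM, amounted to 0.972 ± 0.0534% of the sum after pMCAO (SD, n = 3) and 0.739 ± 0.0798% after sham surgery (SD, n = 4), without overlap. Timd4 was at 0.163 ± 0.0267% after pMCAO and 0.0961 ± 0.0182% after sham surgery, and Ednrb at 0.237 ± 0.0406% after pMCAO and 0.0836 ± 0.0416% after sham surgery, likewise without overlap. These 4 of the 8 genes were above without overlap in this ratio, against 15.0% of all genes. With scaling factors from the pan-macrophage list in edgeR, the median of all genes was 0.50, Ednrb alone of the 8 passed (log2 change 1.57, adjusted p = 0.0474), and 1.12% of all genes were called higher. The changes of Lyve1 (1.28), F13a1 (1.21), Fcna (0.94) and Timd4 (0.84) were above that median there, and those of Cbr2 (0.48), Folr2 (0.30) and Cd4 (0.01) below it.

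**Figure D4:**
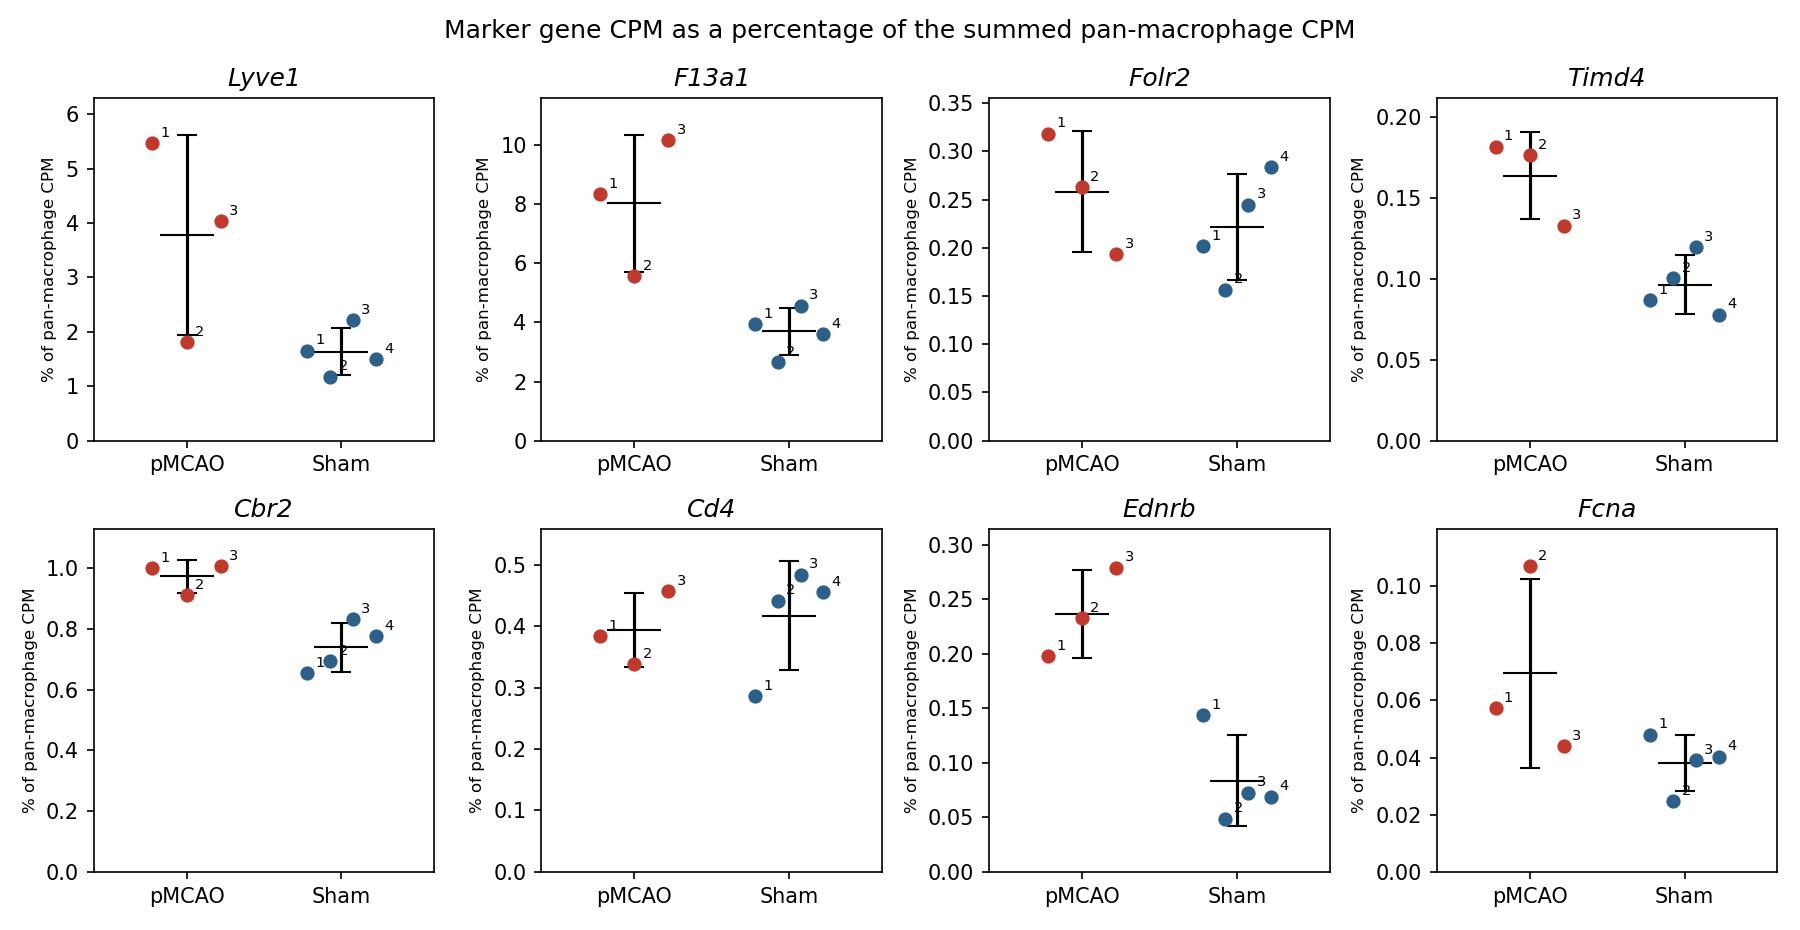
CPM of each marker gene as a percentage of the summed CPM of 20 pan-macrophage genes (vertical axis, from 0) in the 3 pMCAO libraries (red) and 4 Sham libraries (blue), with the mean and SD as bars. F13a1, Ednrb, Timd4 and Cbr2 do not overlap between groups, and Cd4 and Folr2 do.

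Other genes of resident macrophages were looked at next. Of 32 listed genes of the wider resident list, 22 had lower means, against 51.4% of all genes. By the test 1 fell (Mgl2), against 0.0291% of all genes, and none rose. The median log2 change was -0.36 against 0.47 for the 8 markers. Of the 32, 10 lay below without overlap, against 6.58% of all genes, and 2 above, against 5.99%. Mgl2, a galactose-binding lectin, was at 119 ± 17.1 CPM after pMCAO (SD, n = 3) and 268 ± 45.3 CPM after sham surgery (SD, n = 4, adjusted p = 0.0274 by edgeR). The lectins Cd209f (-2.08, adjusted p = 0.0524) and Cd209b (-2.78, adjusted p = 0.0614) and the chemokine Pf4 (-1.12, adjusted p = 0.125) had lower means, and the scavenger receptor Colec12 a higher one (1.09, adjusted p = 0.0795 by edgeR). Cd209b was at 1.25 ± 0.753 CPM after pMCAO (SD, n = 3) and 8.75 ± 2.74 CPM after sham surgery (SD, n = 4). The mannose receptor Mrc1 was at 5389 ± 1508 CPM after pMCAO (SD, n = 3) and 5235 ± 763 CPM after sham surgery (SD, n = 4, adjusted p = 0.955 by edgeR), and the hemoglobin scavenger receptor Cd163 at 2463 ± 601 CPM after pMCAO and 1675 ± 404 CPM after sham surgery (adjusted p = 0.295).

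A list of the MHC class II-high macrophage subset holds class II genes, which LYVE1-positive macrophages usually carry little of, and other genes such as Ccr2, Itgax, Cd9 and Trem2. Of its 14 genes 12 had lower means after pMCAO, against 51.4% of all genes. By the test 2 fell, against 0.0291% of all genes (Ciita and H2-Eb1), none rose and the median was -1.07. After Ciita (-1.07, adjusted p = 0.0240), the transactivator of class II genes, the smallest p were those of H2-Eb1 (-1.78, adjusted p = 0.0319), Cd74 (-1.45, adjusted p = 0.0527), Cd72 (-1.08, adjusted p = 0.0611) and H2-Ab1 (-1.41, adjusted p = 0.0615 by edgeR). In the list of CD4 partners (class II chains, the kinase Lck, the ligand Il16 and transcription factors of the Cd4 locus) all 8 genes had lower means (median -0.80), against 51.4% of all genes. By the test 1 fell (H2-Eb1), against 0.0291% of all genes. The class II chains, H2-Eb1 among them, were already counted in the class II subset list, so the 2 lists are not separate. H2-Eb1 was at 450.4, 728 and 313 CPM in pMCAO 1, 2 and 3, against 1350, 2475, 1338 and 1673 CPM in Sham 1 to 4. Low Cd4 went with a high sum of the class II subset list in Sham 1 but not in the pMCAO libraries. The 14 genes of that subset list summed to 5330 to 9311 CPM after pMCAO and to 15250 CPM in Sham 1.

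Partners of each product were looked at by role, and 0 of their genes passed by edgeR in any of the 6 lists. At an unadjusted p under 0.05 the hyaluronan list had 1 gene lower, the folate list 3 lower, the phosphatidylserine list 1 higher and 1 lower, the endothelin list 0, the lectin list 2 higher and 1 lower and the factor XIII list 4 higher. Over all genes these shares were 6.97% higher and 6.47% lower, so 1 of 10 or of 13 genes is near the background. The hyaluronan list (10 listed genes, median -0.12) held the receptor Cd44 at 424 ± 39.8 CPM after pMCAO (SD, n = 3) and 453 ± 90.5 CPM after sham surgery (SD, n = 4), and its smallest p were those of Hmmr, Has3 and Hyal3 (adjusted p of 0.283, 0.533 and 0.536 by edgeR). In the folate list 11 of 14 genes had lower means (median -0.52), led by the mitochondrial enzyme Mthfd2 at 3.47 ± 0.284 CPM after pMCAO (SD, n = 3) and 7.65 ± 1.87 CPM after sham surgery (SD, n = 4, adjusted p = 0.261 by edgeR), with Fpgs (adjusted p = 0.358) next. In the phosphatidylserine receptor list (13 genes, median 0.02) the bridging ligand Gas6 was at 247 ± 5.58 CPM after pMCAO (SD, n = 3) and 435 ± 118 CPM after sham surgery (SD, n = 4, adjusted p = 0.133 by edgeR), and the receptors Mertk and Stab1 had log2 changes of 0.54 and -0.55.

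The endothelin list (6 genes, median 0.15) held the ligand Edn1 at 14.2 ± 2.20 CPM after pMCAO (SD, n = 3) and 7.66 ± 5.27 CPM after sham surgery (SD, n = 4, adjusted p = 0.453 by edgeR). The other receptor, Ednra, was at 11.3, 0.0942 and 2.19 CPM in pMCAO 1, 2 and 3 and 1.06 to 1.70 CPM after sham surgery, and the converting enzyme Ece2 had a log2 change of -1.19 (adjusted p = 0.422 by edgeR). In the lectin pathway list (6 genes, median 0.45) the inhibitor Serping1 was at 20.4 ± 10.2 CPM after pMCAO (SD, n = 3) and 5.01 ± 2.10 CPM after sham surgery (SD, n = 4, adjusted p = 0.0786 by edgeR), and C3 and C4b had log2 changes of 1.00 and -0.43. Masp2, Fcnb, Mbl1 and Mbl2 were not listed. In the factor XIII and transglutaminase list 8 of 10 genes had higher means (median 1.30), with the thrombin receptor F2r (1.67, adjusted p = 0.117) and the cofactor F5 (1.66, adjusted p = 0.133 by edgeR) first. F5 is also among the large peritoneal macrophage markers, so it was counted in both lists. The B subunit gene F13b and the fibrinogen genes were not listed. The endothelial sums were higher in all pMCAO libraries and the fibroblast sums in pMCAO 1 and 3. The part of these cells and of large peritoneal macrophages in these values was not tested.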

How the data were processed

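RNA of sorted muscularis macrophages was sequenced after ribosomal RNA removal with the Trio kit from 2.0 ng of RNA, per the labels' protocols. Counts per gene were deposited by the authors, and STAR, featureCounts and limma with GRCm38 (mm10) are named in the submitters' processing notes. The sources used here state no version, annotation release or strand setting, and antisense overlaps cannot be told apart. The authors also deposited CPM, log2 fold changes with a mean log2 level, and p-values with FDR, per the file headers. The model behind these is not stated, and they are quoted only as the authors' deposited table.

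Here edgeR 4.0.16 (TMM factors, quasi-likelihood test, R 4.3.3) was fitted to the deposited counts of all 17209 genes and 7 libraries, with edgeR's filter on low counts, which removed no gene, and Benjamini-Hochberg adjustment over all genes. The biological coefficient of variation was 43.6%. CPM means counts divided by the TMM-scaled library total on the usual CPM scale, and log2 CPM used a prior count of 2. Scripts were tested on simulated data. Alternatives were other scalings, filters, DESeq2 1.42.0, limma 3.58.1, a replicate block, thinning and leaving out each library. At these totals 3 counts equal 0.0825 to 0.256 CPM, and this floor covers counting error only.

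The 8 genes and all lists were chosen with earlier results of these data known. Named were the 8, the 3 and 2 genes most like each, of the partner lists the called genes or the 3 of smallest p, and of the resident and class II lists the 5 of smallest p. Some genes that this rule names are not reported here. Cx3cr1, Lyz2, Maf, Mrc1, Cd163, Cd44, Cdh5, Cd3e, Il7r, Prg4, Chil3 and the lymphatic, pericyte and smooth muscle genes were named outside that rule, after their values were seen. Promoter windows and coordinates are on GRCm38.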

Additional observations from a re-analysis of the deposited data

Results flagged for a closer look

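Of 29 sets of 4 sham values examined, 5 had a library far from the others, measured as its gap to the nearest library over the whole range. Chance gives about 1 in 20 such sets. Sham 1 was low for Cbr2 (0.921) and for Cd4 (0.837). It was high for the monocyte marker sum (0.909) and the mesothelial marker sum (0.87), and Sham 2 was high for the fibroblast marker sum (0.884).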

How the results depend on the processing

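The number of genes called was 17 (12 higher, 5 lower), and among the 8 markers 0. It was 29 without scaling factors (14 up, 15 down, all-gene median -0.14), 34 with upper-quartile factors, 193 with factors from the pan-macrophage list (all higher), 76 among genes of at least 5 CPM, 476 by DESeq2, 35 by limma-voom, 818 with sample quality weights and 43 after thinning to the smallest library. With a stromal marker score as covariate, chosen after seeing the data, it was 0 by edgeR, with 1063 genes at an unadjusted p under 0.05. Leaving out 1 library gave 0 (without pMCAO 1, with 1987 at an unadjusted p under 0.05) to 100 genes (without pMCAO 2), with 47 without Sham 1, 47 without Sham 2, 9 without Sham 4 and 7 without pMCAO 3. The cause was not tested.

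Omitting the filter on low counts changed nothing, since it removed no gene. Markers called numbered 1 with pan-macrophage factors, 2 by DESeq2, 3 with quality weights and 0 to 1 with a library left out. Ednrb was called at 1.57 with pan-macrophage factors, 1.14 by DESeq2 and 1.20 with quality weights, and ranged over 0.98 to 1.42 with a library left out (1.42 without Sham 1). F13a1 was called at 0.70 by DESeq2 and 0.76 with quality weights, and Lyve1 at 1.11 with quality weights. Cbr2 turned to 0.0087 with upper-quartile factors, 0.48 with pan-macrophage factors and 0.0022 after thinning, and ranged over -0.13 to 0.10 with a library left out. Folr2 turned to 0.30 with pan-macrophage factors and 0.16 with the stromal score, and ranged over -0.36 to 0.12. Cd4 was 0.0096 with pan-macrophage factors, and Fcna ranged over -0.0467 (without pMCAO 2) to 0.89.

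Groups share replicate numbers, but the labels do not say that the numbers pair the libraries. Deviations of same-numbered libraries correlated at -0.107, 0.00977 and 0.177 over 11588 genes, and not every library correlated best with its own number. So few correlations cannot decide whether the libraries are paired. With the replicate block 21 genes were called, no marker was, and Cbr2 was 0.0155. Precision is limited by 3 and 4 libraries and the spread between them.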
